A study of Mus musculus with 4 samples.

Results

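The core of the Hippo pathway is a set of 10 genes: the kinases STK3, STK4, LATS1 and LATS2, the coactivators YAP1 and WWTR1, and the transcription factors TEAD1, TEAD2, TEAD3 and TEAD4. They were found by exact match of the gene symbol in the deposited expression table, which held all 10 of them among 23258 genes. All 10 passed the filter on low counts, which left 16030 genes for testing. The libraries were 2 from Mst4 KO gastric tumours and 2 from wild-type (WT) gastric tumours of C57BL/6 mice at postnatal week 20, with animals of both sexes in the colony, per the labels. The KO animals carried floxed Mst4 alleles and the UBCcre transgene, in which the broadly active ubiquitin C promoter drives the Cre recombinase, and no other allele or agent is given for either genotype. The labels say neither how the tumours arose nor whether different animals gave the 2 libraries of each genotype. The p-values therefore cover the scatter among these libraries only, and that scatter could be technical.

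In the Hippo pathway the MST kinases (STK4 is MST1, STK3 is MST2) activate the LATS kinases, and LATS kinases phosphorylate YAP and its paralog TAZ, the product of WWTR1. Phosphorylated YAP and TAZ are held in the cytoplasm or degraded, and unphosphorylated ones enter the nucleus and act through TEAD factors, which bind DNA, on genes of growth and of the matrix. Much of the pathway's control is on phosphorylation and location, which transcript levels do not measure. MST4, the product of the deleted gene (STK26 in human), is a kinase of the GCKIII family found in STRIPAK complexes, which also hold the phosphatase PP2A and restrain the MST kinases.

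Although the labels give mouse, the genes in the table are human ones: every row identifier carries the human taxon number, so genes are named here by their human symbols, and KO and WT mean the libraries so labelled. Coordinates and sequences are left out, as no annotation of human genes was used. The KO libraries held 18613533 and 18701250 counts in total, and the WT libraries 30505281 and 18804535 counts. Markers of the labelled tissue were mostly absent: 9 of 11 gastric gland and pit markers found stayed under 1 CPM (counts scaled to the library total) in every library, TFF2 was at 0 in all 4, and PSCA made up most of the list's sum of 80.1 and 89.3 CPM in KO and 241 and 128 CPM in WT. Endothelial markers summed to 2.87 and 4.84 CPM in KO against 8.07 and 6.29 CPM in WT, and leukocyte markers to 14.9 and 19.2 CPM in KO against 38.2 and 21.0 CPM in WT. Fibroblast and matrix markers, mostly VIM, summed to 1076 and 1141 CPM in KO against 1463 and 1177 CPM in WT, and markers of simple epithelium, mostly KRT8 and KRT18, to 1986 and 2279 CPM in KO against 1095 and 2791 CPM in WT. Under 1 CPM in every library were 2 of 8 fibroblast and matrix markers, COL1A2 and PDGFRA, and 2 of 6 epithelial markers, CDH1 and KRT19. WT replicate 1 stood apart from the other libraries. A list of genes induced by low oxygen, all 10 of which were found, summed to 3719 and 3567 CPM in KO, against 11744 and 4231 CPM in WT replicates 1 and 2. WT replicate 1 lay more than 2-fold from WT replicate 2 in 25.4% of genes tested, whereas the KO libraries lay that far apart in 3.93%.

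The targeted gene STK26 (gene number 51765) was low in both KO libraries. In KO it averaged 8.19 ± 1.19 CPM, with values of 9.03 and 7.35, against 54.5 ± 0.53 CPM in WT, with values of 54.1 and 54.8 (SD, n = 2 each), and among the 16030 genes its p ranked 1. Its log2 fold change was -2.73 (SE 0.26), which DESeq2 called (adjusted p = 8.49e-12) and edgeR, at an adjusted p of 0.834, did not. The call also came in edgeR without WT replicate 1 (adjusted p = 2.99e-49), without WT replicate 2 (adjusted p = 3.51e-52) and with the replicate number as a block (adjusted p = 0.0104). The length that its counts and its length-scaled value imply together was 1.78 and 1.31 kb in KO, against 3.03 and 3.13 kb in WT, shorter in both KO libraries than in both WT libraries.

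Per length, the coactivator YAP1 was the most abundant of the 10 genes in every library, and the kinase LATS2 the least abundant. Levels between genes are compared here in FPKM, the deposited value per kilobase. YAP1 ranged over the 4 libraries between 39.8 and 46.2 FPKM, TEAD1 between 23.9 and 42.4 FPKM, and TEAD4 between 18.4 and 27.7 FPKM. STK4, at 13.3 to 18.6 FPKM, and TEAD2, at 13.1 to 16.6 FPKM, came next, with STK4 the higher of them only in WT replicate 1. Then followed WWTR1 (9.87 to 12.6 FPKM), STK3 (5.56 to 11.1 FPKM), TEAD3 (6.20 to 9.33 FPKM), LATS1 (5.30 to 6.75 FPKM) and LATS2 (4.29 to 5.21 FPKM). Ranges of neighbours in this order overlapped everywhere except between TEAD2 and WWTR1 and between LATS1 and LATS2. YAP1 stood above TEAD1 in all 4 libraries although their ranges overlapped, and TEAD1 stood above TEAD4 in 3 of 4, the exception being KO replicate 2. Among all 23258 listed genes, ranked by mean FPKM, the 10 genes lay between percentile 61.2 and percentile 91.9.

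**Figure D1:**
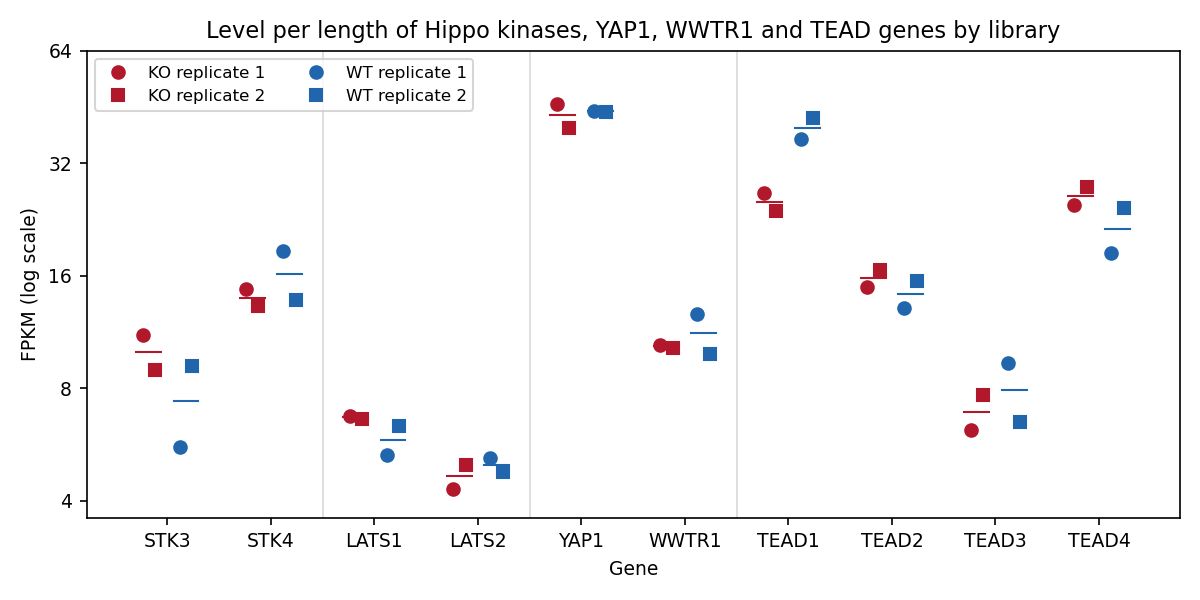
FPKM of each gene in each library on a log axis, KO libraries in red left of WT libraries in blue, with short lines at the group means. TEAD1 is the gene whose KO points both lie well below both WT points, at 26.6 and 23.9 FPKM against 37.3 and 42.4 FPKM, while for STK3 WT replicate 1 lies alone at 5.56 FPKM.

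KO libraries were then compared with WT libraries to ask whether loss of MST4 goes with altered transcript levels of the pathway's core. The edgeR quasi-likelihood test, with Benjamini-Hochberg adjustment over 16030 genes, called 0 of the 10 genes at adjusted p under 0.05 and 0% of all genes. DESeq2 also called 0 of the 10 genes, where it called 0.25% of all genes (40 of 16030). At an unadjusted p under 0.05 in edgeR there was 1 of 10, TEAD1, which lay below in KO, where 4.17% of all genes did (668) and 3.22% were lower. The log2 fold changes (KO over WT) ran between -0.71 and 0.43 with a median of -0.10, and 6 of 10 were below 0. The median over all genes tested was -0.014, with 51.4% below 0. KO and WT values did not overlap for 1 of the 10 genes on the CPM scale, again TEAD1. Over all genes this share was 37.4%, with 18.4% above and 19.1% below in KO. None of the 10 genes was over 2-fold apart between any pair of libraries. Over all genes tested, 6.62% and 6.44% were that far from WT replicate 2 in KO replicates 1 and 2. From WT replicate 1 these shares were 25.5% and 23.4%. Between the KO libraries the share was 3.93%, and between the WT libraries 25.4%.

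The MST kinases did not pass the test, and both showed WT replicate 1 away from the other libraries, in opposite directions. STK3 (gene number 6788) stood at 29.2 and 24.5 CPM in KO, against 15.2 and 24.8 CPM in WT. The groups overlapped, with WT replicate 2 between the KO values and WT replicate 1 lowest. Its log2 fold change was 0.43 (SE 0.32, 95% interval -0.40 to 1.25, edgeR adjusted p = 0.834). STK4 (gene number 6789) stood at 93.5 and 90.2 CPM in KO, against 125.8 and 92.6 CPM in WT. Here WT replicate 1 was highest and WT replicate 2 again lay between the KO values. The log2 fold change was -0.25 (SE 0.25, 95% interval -0.89 to 0.39, edgeR adjusted p = 0.837). Without WT replicate 1 the log2 fold changes were 0.11 for STK3 and -0.010 for STK4.

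The LATS kinases, which phosphorylate YAP and TAZ, did not pass either. LATS1 (gene number 9113) stood at 52.1 and 47.2 CPM in KO and at 33.4 and 50.5 CPM in WT, so WT replicate 1 was again the low library and WT replicate 2 lay within the KO range. The log2 fold change was 0.24 (SE 0.29, 95% interval -0.50 to 0.99, edgeR adjusted p = 0.845). On the FPKM scale LATS1 stood at 6.75 and 6.62 FPKM in KO against 5.30 and 6.35 FPKM in WT, with WT replicate 1 again the lowest. LATS2 (gene number 26524), itself also listed as a transcriptional target of YAP, stood at 25.3 and 29.6 CPM in KO and at 32.03 and 29.2 CPM in WT. These groups overlapped, and the log2 fold change was -0.16 (SE 0.24, 95% interval -0.76 to 0.45, edgeR adjusted p = 0.865).

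Levels of YAP1 and WWTR1 overlapped between the genotypes, and neither gene passed the test. YAP1 (gene number 10413) stood at 255 and 222 CPM in KO, against 262 and 249 CPM in WT. KO replicate 1 lay between the WT values, and the log2 fold change was -0.10 (SE 0.22, 95% interval -0.66 to 0.46, edgeR adjusted p = 0.904). WWTR1 (gene number 25937) stood at 53.96 and 52.8 CPM in KO, against 65.8 and 52.5 CPM in WT. Its WT replicate 1 was the highest library and the other 3 were close together, with a log2 fold change of -0.15 (SE 0.24, 95% interval -0.75 to 0.46, edgeR adjusted p = 0.871). The upper bounds for these genes allow a KO level of up to 1.37-fold that of WT for each, and the lower bounds 0.634-fold for YAP1 and 0.593-fold for WWTR1.

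TEAD1 was the gene of the core set with the largest difference between the genotypes. TEAD1 (gene number 7003) stood at 279 and 250.1 CPM in KO (mean 265 ± 20.7, SD, n = 2), against 403 and 463 CPM in WT (mean 433 ± 41.9, SD, n = 2). Both KO libraries lay below both WT libraries, and the gap between the groups was wider than the gap within either. The log2 fold change was -0.71 (SE 0.23, 95% interval -1.28 to -0.14), a 1.64-fold lower level in KO. It ranked 264 of 16030 genes by p, with an unadjusted p of 0.024 in edgeR's quasi-likelihood test. It did not pass after adjustment in edgeR (adjusted p = 0.834) or in DESeq2 (adjusted p = 0.561). The libraries are labelled as tumours, and in bulk RNA fewer cells that express a gene and less RNA per cell cannot be told apart.

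The other TEAD genes did not show the difference seen for TEAD1. TEAD2 (gene number 8463) stood at 36.2 and 40.04 CPM in KO and at 36.4 and 37.4 CPM in WT, with both WT libraries inside the KO range. TEAD3 (gene number 7005) stood at 39.3 and 47.3 CPM in KO and at 52.3 and 40.3 CPM in WT, and TEAD4 (gene number 7004) at 57.8 and 66.5 CPM in KO and at 45.6 and 61.1 CPM in WT. Each of these pairs of groups overlapped, and for TEAD3 and TEAD4 it was WT replicate 1 that lay outside the KO range. The log2 fold changes were 0.05 (SE 0.23) for TEAD2, -0.10 (SE 0.26) for TEAD3 and 0.22 (SE 0.26) for TEAD4. On the FPKM scale TEAD4 stood at 24.7 and 27.7 FPKM in KO against 18.4 and 24.2 FPKM in WT, with WT replicate 1 again the lowest.

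TEAD1 took a smaller share, and TEAD4 and TEAD2 a larger share, of the TEAD transcripts in both KO libraries than in both WT libraries on the FPKM scale. TEAD1 made up 36.8% and 31.5% of the summed TEAD level in KO, against 47.7% and 47.9% in WT. TEAD4 made up 34.1% and 36.5% in KO, against 23.6% and 27.3% in WT. In KO replicate 2 TEAD4 was thus the most abundant TEAD, a place that TEAD1 held in the other 3 libraries. TEAD2 made up 20.6% and 21.9% in KO, against 16.8% and 17.5% in WT, and TEAD3 between 7.31% and 11.9% over all libraries. Shares of a sum depend on each other, so a smaller TEAD1 share goes with larger shares of the rest. The TEAD2 level itself overlapped between the genotypes, at 14.9 and 16.6 FPKM in KO against 13.1 and 15.5 FPKM in WT. The summed level of the family was 72.4 and 75.8 FPKM in KO, against 78.1 and 88.6 FPKM in WT. These are ratios of length-scaled values, given as a description without an interval.

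**Figure D2:**
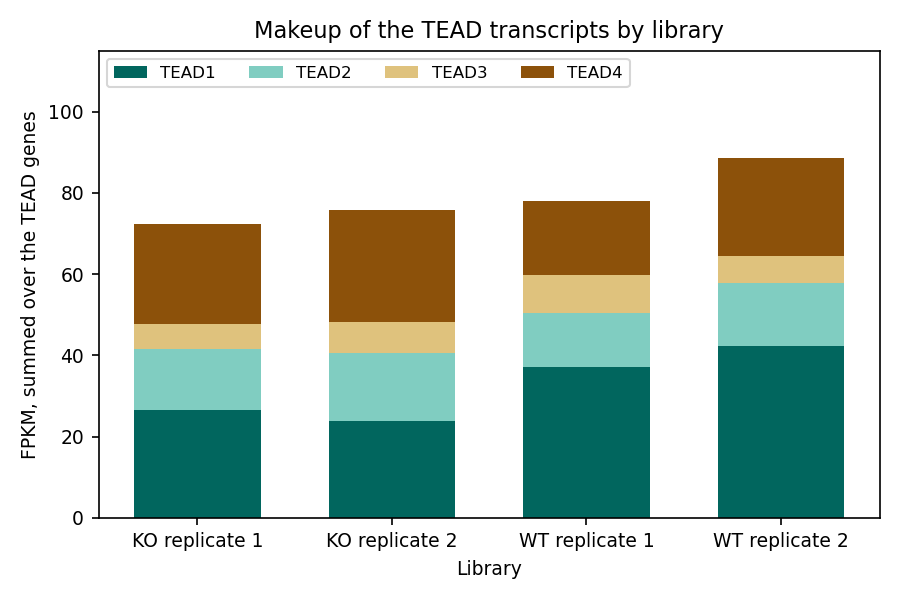
FPKM of TEAD1 to TEAD4 stacked for each library, KO libraries left of WT libraries. The TEAD1 segment at the bottom is 26.6 and 23.9 FPKM tall in KO and 37.3 and 42.4 FPKM in WT, while the whole bar runs from 72.4 to 88.6 FPKM.

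Ratios between paralogs within a library, which do not depend on how libraries are scaled to each other, separated the genotypes for TEAD1 in the same way with either WT library. The log2 ratio of TEAD1 to the sum of TEAD2, TEAD3 and TEAD4 was -0.78 and -1.12 in KO, against -0.13 and -0.12 in WT. The difference was -0.82, and it was -0.83 without WT replicate 1 and -0.82 without WT replicate 2. The exact permutation test, two-sided, gave p = 0.333, the smallest p that 2 against 2 libraries allow (adjusted p = 0.667 over 4 ratios). STK3 stood at 0.753 and 0.673 of the STK4 level in KO, against 0.299 and 0.667 in WT. The exact permutation p was again 0.333 (adjusted p = 0.667), but the log2 difference of 0.67 came to 0.093 without WT replicate 1. LATS1 stood at 1.57 and 1.32 times LATS2 in KO, against 1.02 and 1.33 times in WT, and YAP1 at 4.42 and 3.88 times WWTR1 in KO, against 3.50 and 4.45 times in WT. Both of these overlapped between the genotypes (exact permutation p = 0.667 and 1, adjusted p = 0.889 and 1).

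**Figure D3:**
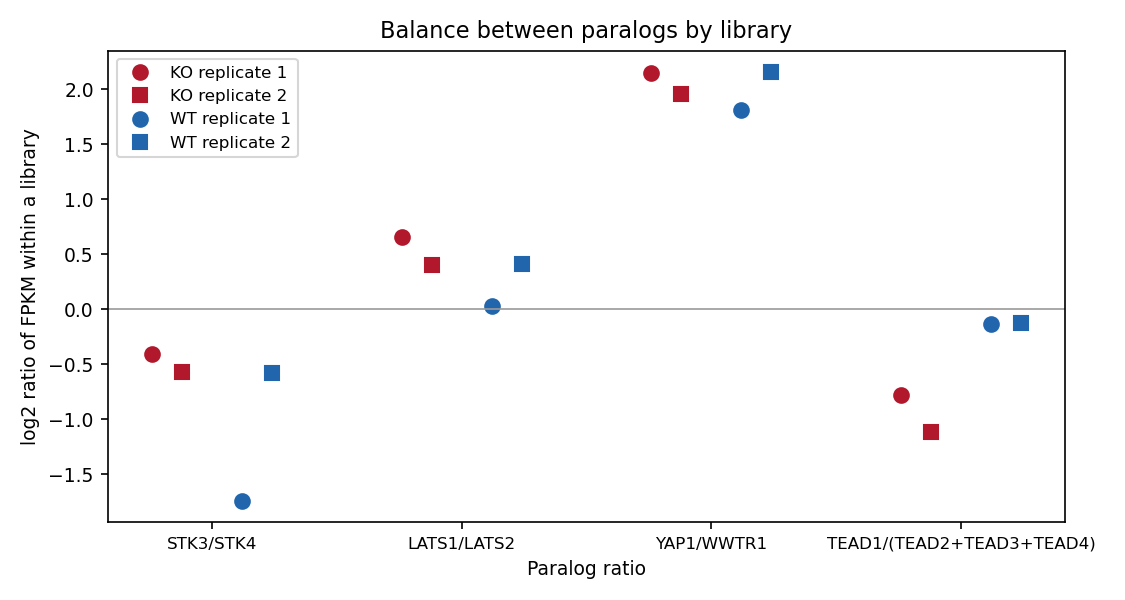
Log2 ratio of FPKM between paralogs in each library, KO libraries in red left of WT libraries in blue. For TEAD1 over the other TEAD genes the KO points, at -0.78 and -1.12, lie below the WT points, at -0.13 and -0.12, whereas for STK3 over STK4 only WT replicate 1, at -1.74, lies apart.

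Without WT replicate 1 the log2 fold change of TEAD1 was the one furthest from 0. TEAD3 crossed 0, at 0.11 against -0.10 with all 4 libraries. So did LATS1, at -0.024 against 0.24, and WWTR1, at 0.024 against -0.15. In that fit edgeR called 1 of the 10 genes, TEAD1, which fell by 0.80 on the log2 scale (SE 0.14, adjusted p = 4.04e-07), where 6.46% of all genes were called and 3.93% called lower. The other 9 genes then had log2 fold changes between -0.09 and 0.11, with adjusted p of at least 0.847. Without WT replicate 2, edgeR called 5 of the 10 genes, where it called 51.3% of all genes (25.2% higher and 26.1% lower): STK3 (0.84, SE 0.18, adjusted p = 1.68e-05), LATS1 (0.60) and TEAD4 (0.47) were higher in KO, and STK4 (-0.43) and TEAD1 (-0.58, SE 0.14, adjusted p = 0.000148) lower. A share of 5 in 10 is close to that background. Fits without a WT library take the spread from the KO libraries alone and assume that the lone WT library varies like them, although the WT libraries lay further apart. Without KO replicate 1 or KO replicate 2, where the spread comes from the WT libraries, 0 of the 10 genes and 0% of all genes were called, and the TEAD1 log2 fold changes were -0.78 (SE 0.62) and -0.62 (SE 0.61). The summed levels of the low-oxygen genes and of the gastric, endothelial, leukocyte and fibroblast markers were highest in WT replicate 1, and that of the epithelial markers lowest, and their part in these values was not tested.

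**Figure D4:**
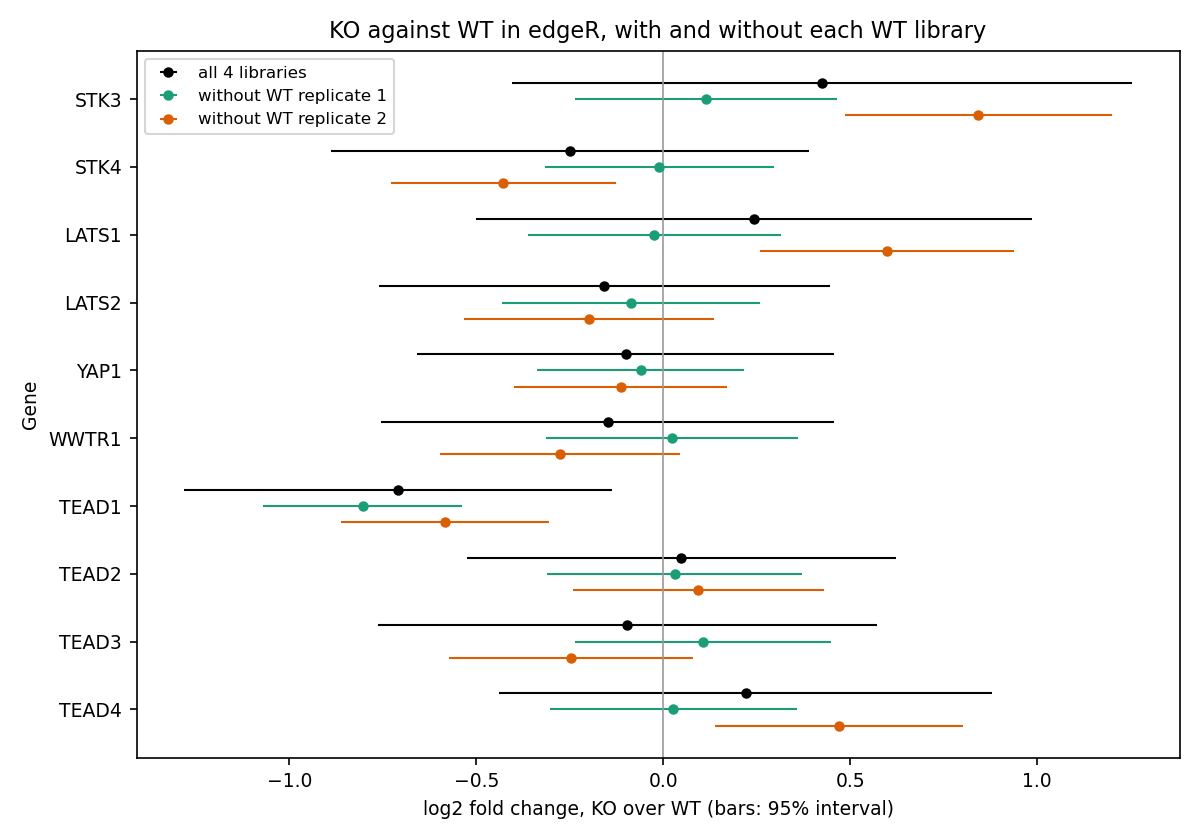
Log2 fold change (KO over WT) of each gene in edgeR with 95% intervals, from all 4 libraries in black, without WT replicate 1 in green and without WT replicate 2 in orange. The TEAD1 intervals lie below 0 in all 3 fits, with values of -0.71, -0.80 and -0.58, while the green values of the other genes lie between -0.09 and 0.11.

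Distances between libraries depended on which WT library was taken. The absolute log2 gap of the core genes between the KO libraries had a median of 0.18 and reached 0.27 for TEAD3. Between the WT libraries the median was 0.35 and the highest 0.70, for STK3, against a median of 0.56 over all genes tested. From KO replicate 1 to WT replicate 2 the median gap was 0.04, against 0.21 over all genes, with TEAD1 the highest at 0.73. From KO replicate 2 to WT replicate 2 it was 0.10, against 0.23 over all genes, with TEAD1 again highest at 0.89. Against WT replicate 1 the median gap was 0.38 from KO replicate 1 and 0.40 from KO replicate 2, against 0.57 and 0.54 over all genes. There STK3 was highest for KO replicate 1, at 0.94, with TEAD1 at 0.53, and for KO replicate 2 TEAD1 and STK3 both stood at 0.69.

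The counts and the FPKM values told the same about most of the core genes. Their ratio implies a transcript length, which for TEAD1 was 10.8 and 10.7 kb in KO and 10.5 and 10.7 kb in WT, so the TEAD1 difference was of like size on both scales. The highest implied length was at most 1.07 times the lowest for STK3, STK4, LATS2, YAP1, WWTR1, TEAD1 and TEAD4, where the median over 11363 genes with more than 50 counts and more than 1 FPKM in every library was also 1.07. It was 1.30 times for LATS1, 1.20 times for TEAD3 and 1.13 times for TEAD2. For LATS1 the implied length was 7.92 and 7.31 kb in KO and 6.08 and 7.84 kb in WT, and for TEAD3 it was 6.50 and 6.33 kb in KO and 5.41 and 6.12 kb in WT. In both genes WT replicate 1 had the shortest.

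Of 11947 other genes that averaged 5 CPM or more, the 5 closest to TEAD1 in their pattern over the 4 libraries were CDC42SE2, APOOL, ACBD5, FOXN2 and ATP7A. Likeness was the Euclidean distance between log2 CPM profiles centred on their mean, which was 0.064, 0.07, 0.079, 0.087 and 0.095 in that order. CDC42SE2, a small binding partner of the GTPase CDC42, stood at 26.1 and 24.6 CPM in KO, against 38.4 and 43.001 CPM in WT. ACBD5, a peroxisomal acyl-CoA binding protein, stood at 41.1 and 38.7 CPM in KO, against 63.6 and 72.5 CPM in WT. With 4 libraries, such closeness describes these values only.

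The genes around the core were read from 4 lists by role, with the 10 core genes left out, and edgeR called 0 members of any list in all 4 libraries, as did DESeq2. At an unadjusted p under 0.05 in edgeR there were 1 of 29 genes upstream of the kinases, 0 of 18 in STRIPAK, 1 of 27 partners and 3 of 23 targets, all lower in KO. Over all genes 4.17% met this, 3.22% lower and 0.948% higher. Of 29 tested genes upstream of the kinases, 19 had a log2 fold change below 0 and the median was -0.18. Over all genes tested 51.4% were below 0 and the median was -0.014. The list median was -0.072 without WT replicate 1 and -0.096 without WT replicate 2, where 15 of 29 were below 0. RASSF2, a scaffold that binds the MST kinases, had the smallest p of them, at 1.80 and 1.26 CPM in KO against 4.23 and 3.02 CPM in WT. Next were MOB1B and MOB1A, the adaptors through which LATS kinases are activated. MOB1B stood at 24.1 and 17.9 CPM in KO against 33.9 and 31.3 CPM in WT, and MOB1A at 91.3 and 81.5 CPM in KO against 121 and 116 CPM in WT. All 3 lay below both WT libraries in both KO libraries, as 19.1% of all genes did. They and FAT4 had the smallest p of this list, so their separation follows from how they were chosen. The giant cadherin FAT4 lay above, at 20.4 and 17.2 CPM in KO against 13.9 and 12.6 CPM in WT (log2 fold change 0.50, SE 0.26). Without WT replicate 1 the log2 fold changes were -0.57 for MOB1B and -0.70 for RASSF5. They were -0.67 and -0.23 without WT replicate 2.

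STRIPAK subunits and the other GCKIII kinases had 9 of 18 tested genes above 0 and 9 below with all 4 libraries, and a median log2 fold change of 0.03. Leaving out WT replicate 1 gave 6 above and 12 below, and without WT replicate 2 there were 11 above and 7 below. The PP2A subunits with the smallest p pointed opposite ways. The catalytic subunit gene PPP2CB stood at 37.5 and 35.7 CPM in KO against 41.97 and 58.2 CPM in WT, and the scaffold subunit gene PPP2R1A at 270.5 and 309 CPM in KO against 222 and 246 CPM in WT. STK24, a GCKIII kinase and paralog of MST4, stood at 95.4 and 76.98 CPM in KO against 126.7 and 88.8 CPM in WT, and its groups overlapped, as did those of CTTNBP2NL, a STRIPAK adaptor (log2 fold change -0.32, SE 0.29). Without WT replicate 1 the log2 fold changes were -0.67 for PPP2CB and -0.59 for CTTNBP2NL. They were -0.17 and 0.05 without WT replicate 2, so both differences rested mostly on WT replicate 2.

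Partners and inhibitors of LATS, YAP, TAZ and TEAD had 13 of 27 tested genes above 0, 14 below and a median of -0.01 with all 4 libraries. Leaving out WT replicate 1 gave 8 above and 19 below (median -0.094), and without WT replicate 2 there were 15 above and 12 below (median 0.11). AMOT, an angiomotin that binds YAP, stood at 0.628 and 0.522 CPM in KO against 5.16 and 1.46 CPM in WT. These values rest on few counts, 12 and 10 in KO against 152 and 27 in WT. The AMOT log2 fold change was -1.33 without WT replicate 1 and -3.13 without WT replicate 2. CSNK1E is a casein kinase that acts with LATS to mark YAP for degradation. It stood at 35.4 and 43.8 CPM in KO, against 170.3 and 41.9 CPM in WT replicates 1 and 2. SHANK2 had the same shape, at 2.16 and 2.18 CPM in KO against 9.01 and 2.37 CPM in WT. For these 2 genes WT replicate 1 alone made the difference, as the log2 fold changes were -1.42 and -1.40 with it and -0.08 and -0.13 without it. YWHAQ is a 14-3-3 protein of the family that retains phosphorylated YAP in the cytoplasm. It stood at 534 and 472 CPM in KO against 556 and 949 CPM in WT. Its log2 fold change was -0.91 without WT replicate 1 and -0.12 without WT replicate 2, the library where it was highest.

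Of 23 tested targets of YAP and TEAD, 17 had a log2 fold change below 0, and the median was -0.34. Over all genes tested 51.4% were below 0 and the median was -0.014. Some genes are on both this list and that of the partners. The size of the target median depended on the libraries: it was -0.18 without WT replicate 1, -0.50 without WT replicate 2 and -0.18 without KO replicate 2. It was -0.10 with a filter of at least 5 CPM in 2 libraries and -0.031 with limma-trend on FPKM. Both of these settings left out low genes such as CTGF and ANKRD1, so their medians cover fewer targets. Over all genes the limma-trend median was 0.065. The target genes described first are those with the smallest p, so their separation between the genotypes follows from how they were chosen. FOXF2, a forkhead factor, stood at 7.19 and 6.28 CPM in KO against 14.7 and 12.9 CPM in WT, and TGFB2, a growth factor of the TGF-beta family, at 15.4 and 14.5 CPM in KO against 27.1 and 22.7 CPM in WT. F3, the tissue factor gene, stood at 5.93 and 6.02 CPM in KO against 22.7 and 9.38 CPM in WT, and NT5E, which makes the ectoenzyme CD73, at 3.24 and 2.54 CPM in KO against 7.09 and 4.59 CPM in WT. The most widely used readouts of YAP overlapped between the genotypes. The matricellular gene CYR61 stood at 31.7 and 30.9 CPM in KO against 28.2 and 37.0 CPM in WT. CTGF stood at 0.89 and 1.37 CPM in KO against 3.41 and 1.30 CPM in WT, and ANKRD1 at 1.09 and 0.726 CPM in KO against 1.72 and 0.851 CPM in WT, so both were low in every library. Without WT replicate 1 the log2 fold changes were -0.94 for FOXF2, -0.61 for TGFB2 and -0.49 for MYOF. Without WT replicate 2 they were -1.11, -0.84 and 0.11, so the lower MYOF value rested on WT replicate 2. The F3 log2 fold change was -1.43 with all 4 libraries, -0.66 without WT replicate 1 and -1.90 without WT replicate 2. For NT5E these were -1.01, -0.66 and -1.26, so both differences were smaller without WT replicate 1.

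**Figure D5:**
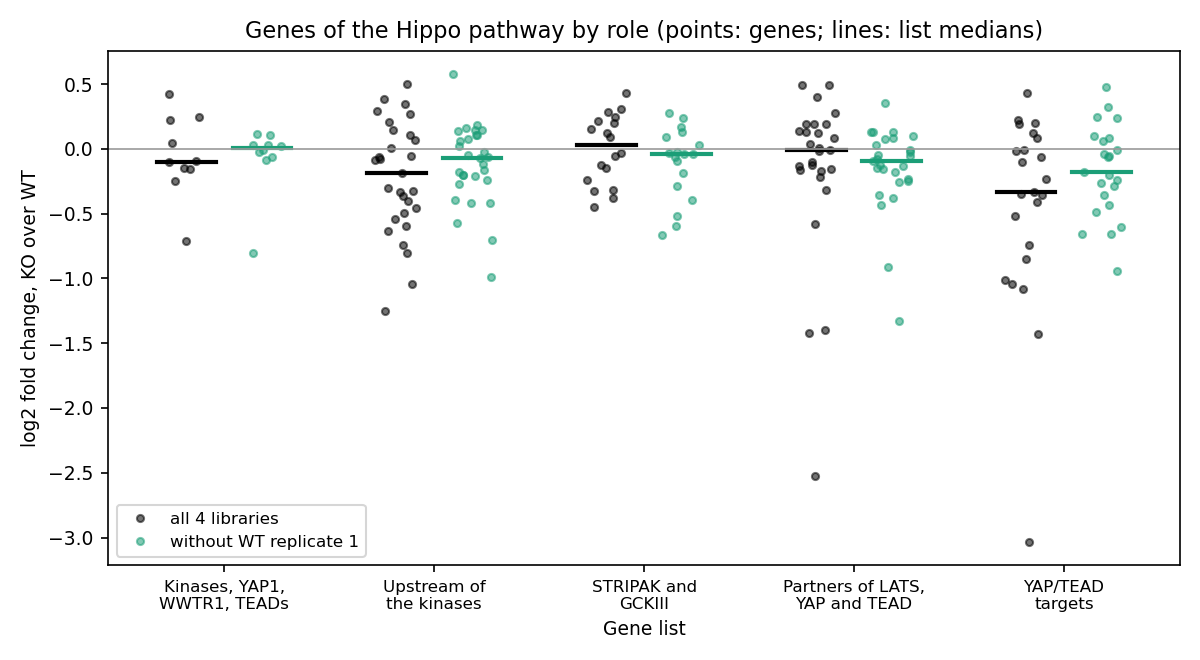
Log2 fold change (KO over WT) of each tested gene by list, from all 4 libraries in black and without WT replicate 1 in green, with lines at the list medians. The medians in black are -0.10 for the core genes, -0.18 upstream of the kinases, 0.03 for STRIPAK, -0.01 for partners and -0.34 for targets, and the lowest black point is IGFBP3, whose value rests on 794 CPM in WT replicate 1.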

How the data were processed

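RNA sequencing of 2 Mst4 KO and 2 WT libraries was analysed from 1 deposited table. Per the submitters' processing notes, HISAT2, Cufflinks and RSEM were used and the build was GRCm38.p5, with no versions or roles. The sources used here do not give annotation, strand setting or filters. The authors deposited estimated counts per gene, made with these tools, that are not whole (18.8% to 23.7% lie within 0.005 of a whole number) and were rounded. The second deposited value was read as FPKM because its columns sum to 441772 to 452971, a total that differs between libraries.

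Counts were scaled by TMM (factors 1.03 and 1.02 in KO, 0.966 and 0.985 in WT), filtered with filterByExpr, and fitted in edgeR 4.0.16 (quasi-likelihood test, robust dispersion, genotype as the only term) in R 4.3.3, with Benjamini-Hochberg adjustment and a threshold of 0.05. CPM uses the TMM-scaled totals; implied lengths use plain totals. An SE is the size of the log2 fold change over the root of F, and 95% intervals use the t distribution with edgeR's degrees of freedom. Ratios were tested with exact permutation in scipy 1.17.1. Alternatives were RLE and upper-quartile scaling, other filters, DESeq2 1.42.0, limma 3.58.1 (voom, and trend on log2(FPKM + 1)), each library left out, and the replicate number as a block. The edgeR fit was tested on simulated counts. The members and lists were chosen with earlier results of these data known. Named genes were the 10 core genes, STK26, up to 4 genes of each list by smallest p, CTGF, CYR61 and ANKRD1, and the 5 genes closest in pattern to the core gene with the smallest p; RASSF5, MYOF and IGFBP3 were named after their values were seen. The symbol LHFP, 1 of 24 target entries, was not matched.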

Additional observations from a re-analysis of the deposited data

How the results depend on the processing

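No core gene was called under RLE or upper-quartile scaling, either other filter, DESeq2, limma-voom or limma-trend on FPKM, and TEAD1 was lower in KO under every one of these and with each library left out, with log2 fold changes between -0.80 and -0.58. Genes called numbered 0 with all 4 libraries and 40 with DESeq2, and lay between 0 and 8702 with a library left out; core genes called lay between 0 and 5 and genes of the 4 lists called between 0 and 56, all the calls coming with a WT library left out. The median log2 fold change of the core genes lay between -0.16 and 0.0084 with a library left out. The log2 fold change changed sign with a library left out for LATS1 (range -0.024 to 0.60), YAP1 (-0.19 to 0.012), WWTR1 (-0.28 to 0.024), TEAD2 (-0.011 to 0.13) and TEAD3 (-0.25 to 0.11), and the log2 ratio of YAP1 to WWTR1 for KO minus WT ran between -0.10 and 0.25. With CPM in place of FPKM the differences in the share of the TEAD sum, KO minus WT, were 2.86 percentage points for TEAD2, 2.40 for TEAD3 and 5.91 for TEAD4, since longer transcripts then weigh more. TMM in the implied lengths moves every gene alike: the log2 values for KO minus WT became -0.054 for LATS2, -0.016 for STK3, -0.036 for STK4, -0.053 for TEAD1, -0.076 for TEAD4, -0.030 for WWTR1 and -0.065 for YAP1.

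With the replicate number as a block, edgeR called 10 genes, among them STK26 (adjusted p = 0.0104), and the TEAD1 log2 fold change was -0.71 (SE 0.39) and did not pass. Nothing in the labels says that the numbers pair the samples, and the deviations of same-numbered libraries from their group means had a correlation of -0.14 across 15894 genes. The crossed pairing, added after this was seen, called 4 genes. Core genes had 448 to 11884 counts per library.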

Other observations

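Several genes of the pathway that no comparison above names differed more between the WT libraries than between the genotypes; they were chosen after their values were seen. AMOTL2, an angiomotin that is both a partner and a target of YAP, stood at 56.4 and 63.4 CPM in KO, against 33.4 and 76.6 CPM in WT replicates 1 and 2. AJUBA, a LIM protein that restrains LATS, stood at 64.3 and 65.1 CPM in KO, against 43.6 and 87.4 CPM in WT. VGLL3, a cofactor that binds TEAD in place of YAP, stood at 82.6 and 70.4 CPM in KO, against 41.5 and 85.2 CPM in WT, while VGLL4, a cofactor that competes with YAP, stood at 60.97 and 65.2 CPM in KO, against 91.0 and 49.5 CPM in WT. For each of these 4 genes both KO values lay between the WT values, and edgeR gave log2 fold changes of 0.13 (SE 0.43), -0.02 (SE 0.38), 0.27 (SE 0.39) and -0.16 (SE 0.35) in the order named. The kinase adaptor SAV1 and the receptor kinase AXL, a YAP target, were steadier. SAV1 stood at 29.3 and 28.2 CPM in KO against 31.2 and 29.6 CPM in WT, and AXL at 144 and 161 CPM in KO against 170 and 156 CPM in WT.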
